A study of Arabidopsis thaliana with 13 samples.

Results

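KISS ME DEADLY genes KMD1 to KMD4 of Arabidopsis thaliana encode F-box proteins with Kelch repeats, and their transcript levels were followed in dark-grown seedlings exposed to pifithrin-alpha (PFT-alpha) or to the ethylene precursor ACC. The 4 members were AT1G80440 (KMD1), AT1G15670 (KMD2), AT2G44130 (KMD3) and AT3G59940 (KMD4), found by gene identifier among 33033 genes. They were chosen by their measured TPM in these same libraries, higher on average under PFT-alpha than in mock in both genotypes, with ACC set beside them. Their levels under PFT-alpha, ACC and mock are therefore given as a description, with no test.

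An F-box protein is the exchangeable subunit of an SCF ubiquitin ligase, in which it holds the protein that is to be marked for destruction. KMD proteins are known to bind type-B response regulators (ARRs), the transcription factors that carry out cytokinin responses, and to lower their amount. The same proteins, under the name Kelch repeat F-box (KFB), are known to target phenylalanine ammonia-lyase (PAL), the entry enzyme of phenylpropanoid synthesis. KMD4 is also called KFB50, KMD1 KFB20 and KMD2 KFB01.

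Seedlings had 6 h of white light, grew at 22 °C in darkness and, at 4 days, were moved for 4 h into liquid medium. Wild type is the accession Col-0. It received 30 µM PFT-alpha, 10 µM ACC or, as the mock, 1‰ DMSO (3 libraries each). The mutant etr1-1 carries a dominant change in the ethylene receptor ETR1 that makes seedlings insensitive to ethylene, and it received PFT-alpha or DMSO (2 libraries each). Whole seedlings were taken and polyadenylated RNA was sequenced. PFT-alpha is a compound used to block p53 in animal cells. The labels do not state that the PFT-alpha and ACC media held DMSO, nor how many seedlings made 1 library. In whole seedlings, fewer cells of a type and less RNA per cell cannot be told apart.

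A few libraries stood apart. Replicate 3 of all 3 wild-type groups lay at 74.4 to 87 on the first principal component (44.7% of the variance), and the other 10 libraries lay at -35.2 to -9.5. The summed level of 8 antenna and Rubisco markers was 37900 to 46380 TPM in those 3 libraries and 16850 to 28550 in the other 10, where TPM (a level scaled for transcript length and for the total of each library) is the unit of all levels here. All 5 markers of etiolated seedlings were detected, with sums of 1824 to 7661 TPM. The library labelled etr1-1 mock 1 held 46.89 TPM of the ethylene-induced receptor gene ERS2, against 11.04 in etr1-1 mock 2, 11.46 to 18.59 in wild-type mock and 45.36 to 50.43 under ACC. Most values of the 4 genes that rest on these libraries are given with and without them, or with their range over alternative fits. For the gene lists the etr1-1 medians are also given without etr1-1 mock 1. Estimated depth was 20.3 to 29.1 M fragments, which left 983 to 15150 fragments for a member in a library.

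All 4 genes are annotated on the plus strand in the TAIR10.1 assembly, each as a single exon. KMD3 spans chr2:18253610-18255054 and KMD4 spans chr3:22142856-22144439. KMD1 lies at chr1:30241452-30243176 and KMD2 at chr1:5389952-5391672. Their reading frames hold 409, 418, 354 and 359 codons before the stop, in the order KMD3, KMD4, KMD1, KMD2. The coding sequences form 2 pairs. KMD3 and KMD4 were identical at 67.5% of aligned positions, gaps included, and KMD1 and KMD2 at 71.9%. Across the pairs identity was 47.2 to 48.1%. The longest stretch shared without a mismatch was 26 bases in the first pair and 17 in the second, all shorter than the 150-base reads.

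Sequence just upstream of the annotated starts is shown as a description. Across 10 of the libraries 3 of these genes moved together, but they were chosen by their levels in these same libraries. Each run is the plus strand of TAIR10.1 read 5′ to 3′, credited to RefSeq. It ends at the base before the gene and holds 250 bases, except for KMD3, where it stops after 137 bases at the edge of a neighbouring gene. The runs cover chr2:18253360-18253496 (KMD3), chr3:22142606-22142855 (KMD4), chr1:30241202-30241451 (KMD1) and chr1:5389702-5389951 (KMD2). Capitals mark the core AGATT that type-B ARRs are known to bind, in either orientation, and TATAAA in the orientation shown.
KMD3: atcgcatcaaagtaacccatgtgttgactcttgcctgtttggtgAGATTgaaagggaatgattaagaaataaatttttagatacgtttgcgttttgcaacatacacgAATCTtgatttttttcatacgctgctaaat
KMD4: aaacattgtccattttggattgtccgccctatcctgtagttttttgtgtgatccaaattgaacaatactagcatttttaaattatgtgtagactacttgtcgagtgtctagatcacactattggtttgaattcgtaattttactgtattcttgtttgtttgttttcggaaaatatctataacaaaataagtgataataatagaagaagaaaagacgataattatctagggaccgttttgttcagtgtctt
KMD1: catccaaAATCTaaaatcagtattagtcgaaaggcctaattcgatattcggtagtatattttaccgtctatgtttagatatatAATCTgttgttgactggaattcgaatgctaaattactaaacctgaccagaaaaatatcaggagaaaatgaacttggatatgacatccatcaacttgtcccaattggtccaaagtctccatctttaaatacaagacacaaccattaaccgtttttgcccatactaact
KMD2: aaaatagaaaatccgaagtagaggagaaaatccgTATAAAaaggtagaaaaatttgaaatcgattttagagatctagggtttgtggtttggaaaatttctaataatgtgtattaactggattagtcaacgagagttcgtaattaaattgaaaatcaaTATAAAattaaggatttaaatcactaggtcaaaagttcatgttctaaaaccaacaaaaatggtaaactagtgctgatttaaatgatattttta

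Motifs were searched on both strands of the full 250 bases. AGATT occurred 2 times each before KMD3 (at -206 and -143 from the start) and KMD1 (at -243 and -167), and it was not found before KMD4 or KMD2. In 63.7% of 27443 windows before protein-coding genes it occurred at least 1 time. TATAAA occurred before KMD2 at -216 and -93 and, on the other strand, before KMD3, and 47.3% of all windows held it. The sugar-responsive element TATCCA occurred before KMD1 alone of the 4 (13.6% of windows), and the I-box core GATAA 3 times before KMD4 alone (54.9%). The G-box CACGTG (6.49% of windows) and the EIN3 core ATGTA (52.0%) were found before 0 of the 4. Of the 10 motifs searched, 0 were held by more than 2 of the 4 windows. A match is a run of letters and not a shown binding site.

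KMD3 had the largest difference of the 4 genes. In wild-type mock it measured 122.26, 131.18 and 45.94 TPM in replicates 1, 2 and 3, and under PFT-alpha 370.3, 301.12 and 140.68. The PFT-alpha libraries all lay above the mock libraries. Ratios of same-numbered libraries were 3.03, 2.30 and 3.06, so replicate 3, although low in both groups, kept the same ratio. In etr1-1 KMD3 measured 98.17 and 125.6 TPM in mock and 550.01 and 497.51 under PFT-alpha. The mutant PFT-alpha libraries were the highest of the 13, at a ratio of means of 4.68. Without the library labelled etr1-1 mock 1 that ratio was 4.17.

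Under ACC KMD3 measured 75.84, 91.73 and 60.71 TPM. Replicates 1 and 2 lay below their mock partners, at ratios of 0.620 and 0.699, and replicate 3 lay above its partner at 1.32, so the ranges of ACC and mock overlapped. All PFT-alpha libraries of wild type lay above all ACC libraries, with same-numbered ratios of 4.88, 3.28 and 2.32. KMD3 alone of the 4 genes separated these groups. Group means ran from 524 ± 37.1 TPM in etr1-1 under PFT-alpha (SD, n = 2) to 271 ± 118 in wild type under PFT-alpha (SD, n = 3), 112 ± 19.4 in etr1-1 mock (SD, n = 2), 99.8 ± 46.9 in wild-type mock and 76.1 ± 15.5 under ACC (SD, n = 3 each). The last 3 groups overlapped their neighbours.

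The whole of KMD3 lies opposite AT2G44140, a minus-strand gene for a C54-family peptidase with an isoform whose last exon covers KMD3. Whether fragments were counted by strand is not stated, so reads of the 2 genes may be exchanged. AT2G44140 measured 23.65 to 33.15 TPM over the 13 libraries, with wild-type means of 29.1 ± 2.79 after DMSO and 24.6 ± 1.48 after PFT-alpha (SD, n = 3 each). Its levels were lower than those of KMD3 in every library. Its group means lay in the opposite order to those of KMD3, while in wild-type mock and ACC replicate 3 was the lowest library for both genes.

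KMD4 was higher under PFT-alpha by a smaller ratio. In wild-type mock it measured 53.46, 54.0 and 78.57 TPM in replicates 1 to 3, and under PFT-alpha 94.55, 92.64 and 147.32. The groups did not overlap, and same-numbered ratios were 1.77, 1.72 and 1.88. In etr1-1 it measured 64.15 and 60.01 TPM in mock and 149.08 and 125.06 under PFT-alpha, at a ratio of means of 2.21 (2.28 without the library labelled etr1-1 mock 1). Under ACC it measured 59.44, 52.06 and 152.01 TPM. The first 2 ACC libraries lay beside mock at ratios of 1.11 and 0.964, and the replicate 3 library, at 1.94 times its partner, was the highest of all 13. With that library ACC and PFT-alpha overlapped, and without replicate 3 the ratio of PFT-alpha to ACC means was 1.68.

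KMD4 differed from the other 3 genes in replicate 3. Its replicate 3 level was 1.46, 1.57 and 2.73 times the mean of replicates 1 and 2 in mock, PFT-alpha and ACC, while the ratios of KMD1, KMD2 and KMD3 lay between 0.319 and 0.725. The non-coding gene AT3G09275 lies on the opposite strand at chr3:22142893-22144281, wholly within the exon of KMD4. It measured 105.83 to 227.04 TPM in 10 libraries and was listed at 0 in the 3 wild-type replicate 3 libraries. Where it was at 0, KMD4 was at its highest for the group.

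AT3G09275 followed KMD4 across treatments in the other 10 libraries. It measured 109.81 and 113.35 TPM in wild-type mock, 178.41 and 154.31 under PFT-alpha and 107.63 and 105.83 under ACC. In etr1-1 it measured 110.87 and 117.09 in mock and 227.04 and 205.97 under PFT-alpha. Since the strand rule of the counting is not stated, the levels of KMD4 and AT3G09275 cannot be told apart with certainty. Of 14183 genes with at least 5 TPM in all 10 other libraries, 6 were listed at 0 in all 3 replicate 3 libraries, and 6 of these 6 lay opposite another gene for at least 50% of their length, against 3.24% of the 14183. For replicates 1 and 2, taken the same way, the count was 0 each. Among 239 such genes with at least 90% of their length opposite another gene, the same 6 were at 0 in replicate 3, so most genes of that kind were not. Its part in the values of KMD4 was not tested.

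Summing the 2 genes on the full length of KMD4, a reading added after the values were seen, gives a level that depends less on how reads were split between them. Another minus-strand gene, AT3G59950, overlaps KMD4 by 160 bases and is not in the sum. AT3G59950 measured 20.57 to 34.26 TPM over the 13 libraries, and its part was not tested. The sum was 149.8, 153.4 and 78.57 in wild-type mock, 251.0, 228.0 and 147.3 under PFT-alpha and 153.8, 144.9 and 152.0 under ACC. In etr1-1 it was 161.4 and 162.7 in mock and 348.2 and 305.7 under PFT-alpha. The direction of KMD4 under PFT-alpha was kept, with same-numbered ratios of 1.68, 1.49 and 1.88 in wild type and a ratio of means of 2.02 in etr1-1. On this reading replicate 3 was low in mock and PFT-alpha, at 0.518 and 0.615 of the mean of replicates 1 and 2, as for the other 3 genes, and at 1.02 in ACC. Wild-type mock and PFT-alpha then overlapped, because PFT-alpha replicate 3 lay below the first 2 mock libraries.

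**Figure D1:**
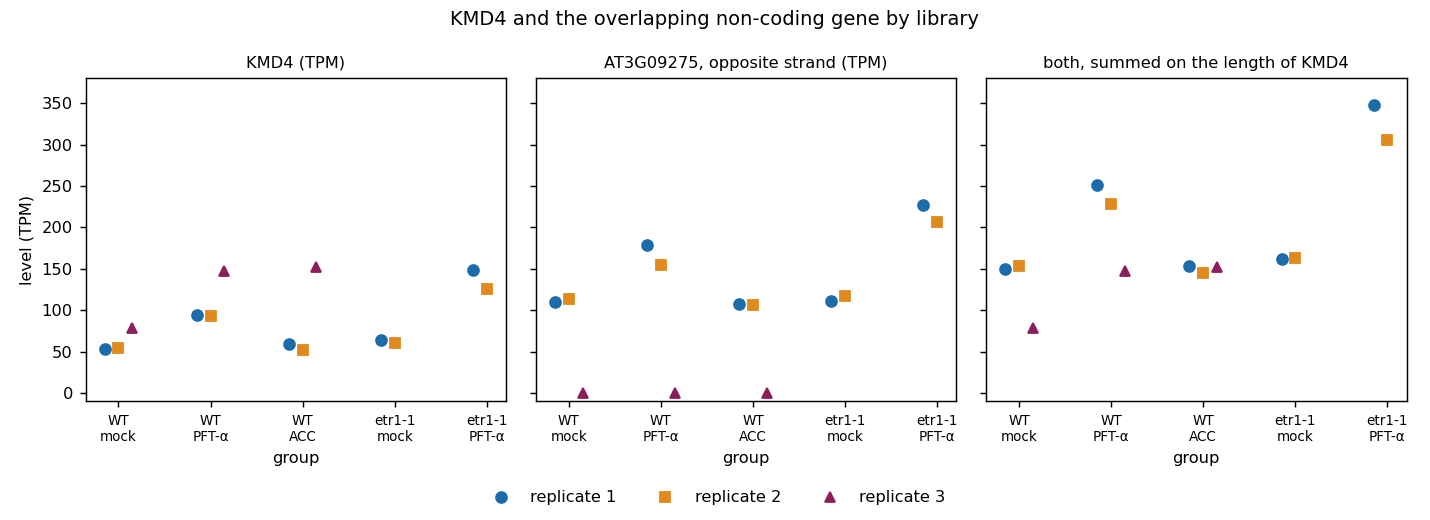
Level of KMD4, of the opposite-strand gene AT3G09275 and of their sum on the length of KMD4 (y axis, TPM) in each library by group (x axis), with the replicate number as the point's shape. AT3G09275 is at 0 in the 3 wild-type replicate 3 libraries, and the sum is highest in etr1-1 under PFT-alpha, at 305.7 and 348.2.

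KMD1 was slightly higher under PFT-alpha in wild type and more so in etr1-1. It measured 145.05, 151.37 and 50.58 TPM in wild-type mock and 176.2, 176.9 and 56.84 under PFT-alpha. All 3 same-numbered ratios were above 1, at 1.22, 1.17 and 1.12, but the groups overlapped because of replicate 3. The difference of log2 means was 0.22 and turned to -0.29 without mock replicate 3, and to -0.05 without PFT-alpha replicate 1 or without PFT-alpha replicate 2. With both replicate 3 libraries left out, the ratio of means was 1.19. In etr1-1 it measured 138.12 and 164.25 TPM in mock and 246.63 and 221.62 under PFT-alpha, with no overlap and a ratio of means of 1.55 (1.425 without the library labelled etr1-1 mock 1). Under ACC it measured 136.99, 137.01 and 84.15 TPM, with ratios to mock of 0.944, 0.905 and 1.66. PFT-alpha exceeded ACC in replicates 1 and 2, at 1.29 each, and not in replicate 3, at 0.676.

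KMD2 did not separate any of these groups. It measured 203.71, 157.27 and 58.64 TPM in wild-type mock, 223.0, 221.93 and 70.86 under PFT-alpha and 212.52, 219.69 and 99.69 under ACC. Ratios of PFT-alpha to mock were 1.095, 1.41 and 1.21, and those of ACC to mock 1.04, 1.40 and 1.70. Without mock replicate 3 the PFT-alpha difference of log2 means, 0.30 over all libraries, was -0.23, and with both replicate 3 libraries left out the ratio of means was 1.23. In etr1-1 it measured 181.53 and 120.51 TPM in mock and 175.9 and 160.86 under PFT-alpha. Those ranges overlapped, so in etr1-1 the description of KMD2 as higher under PFT-alpha rests on the ratio of means of 1.12 alone (1.40 without the library labelled etr1-1 mock 1). Without etr1-1 mock 2 the difference of log2 means was -0.11. Its highest group mean, 177 ± 67.3 TPM, was that of ACC (SD, n = 3).

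**Figure D2:**
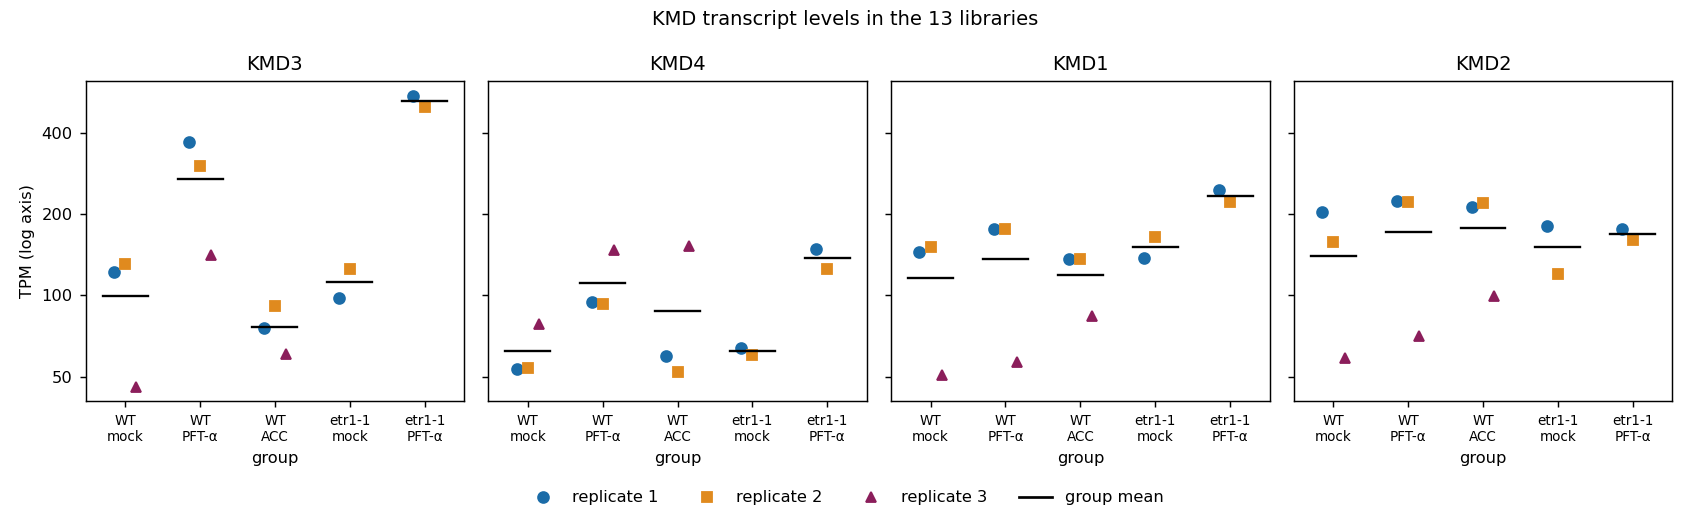
TPM of KMD3, KMD4, KMD1 and KMD2 (y axis, log scale) in each of 13 libraries by group (x axis), with the replicate number as the point's shape and a bar at the group mean. KMD3 spans 45.94 to 550.01 TPM, and replicate 3 lies low for KMD1, KMD2 and KMD3 and high for KMD4.

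Order of the group means differed between the genes. KMD3 and KMD4 both had etr1-1 under PFT-alpha first and wild type under PFT-alpha second. KMD1 had etr1-1 mock, at 151 ± 18.5 TPM (SD, n = 2), between them. For KMD4 every neighbouring pair in the order overlapped, from 137 ± 17.0 TPM in etr1-1 under PFT-alpha (SD, n = 2) to 62.0 ± 14.3 in wild-type mock (SD, n = 3), although the first and the last did not overlap. For KMD1 only the first group, 234 ± 17.7 TPM (SD, n = 2), stood clear of the next. For KMD2 every neighbouring pair overlapped.

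Set against all 21091 genes that passed the filter of at least 1 TPM in at least 2 libraries, all 4 members being among them, the size of the differences ran from the extreme to the ordinary. On the scale of log2(TPM + 1), the PFT-alpha minus mock difference in wild type was 1.46 for KMD3 (rank 44 from the highest), 0.83 for KMD4 (rank 144), 0.30 for KMD2 (rank 855) and 0.22 for KMD1 (rank 1396). In etr1-1 it was 2.23, 1.13, 0.18 and 0.63, at ranks 34, 291, 3950 and 883. Groups did not overlap, PFT-alpha higher, for KMD3 and KMD4 in wild type, where 1.08% of all genes did so, and for KMD3, KMD4 and KMD1 in etr1-1, where 13.4% did. All 4 were higher in all 3 wild-type pairs (12.0% of all genes). Higher levels in these pairs and no overlap in etr1-1 were found for 3 of the 4 (not for KMD2) and for 1.43% of all genes. The etr1-1 difference minus the wild-type difference was 0.77 for KMD3, 0.41 for KMD1, 0.30 for KMD4 and -0.11 for KMD2. Over the alternative fits it ran from 0.35 to 1.25, -0.13 to 0.92, 0.12 to 0.52 and -0.66 to 0.42, in the same order. These values describe contrasts by which the genes were chosen, and nothing is read from them.

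PFT-alpha minus ACC was 1.73 for KMD3 (rank 47), 0.48 for KMD4, 0.06 for KMD1 and -0.13 for KMD2. Of all genes, 4.89% were higher under PFT-alpha than ACC with no overlap, and KMD3 was among them. ACC minus mock was -0.27 for KMD3, 0.35 for KMD4, 0.17 for KMD1 and 0.43 for KMD2, with 0 of the 4 free of overlap. Since PFT-alpha and ACC were compared with the same mock libraries, these values are set side by side only. Of all genes, 4.54% were higher and 7.78% lower under ACC than mock with no overlap. In limma's fit over all genes PFT-alpha against mock in wild type called 0 genes at an adjusted p of 0.05 (0.0% of those tested), with 147 at an unadjusted p under 0.05, and 0 were called with the replicate number as a block in the 9 wild-type libraries (817 unadjusted).

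**Figure D3:**
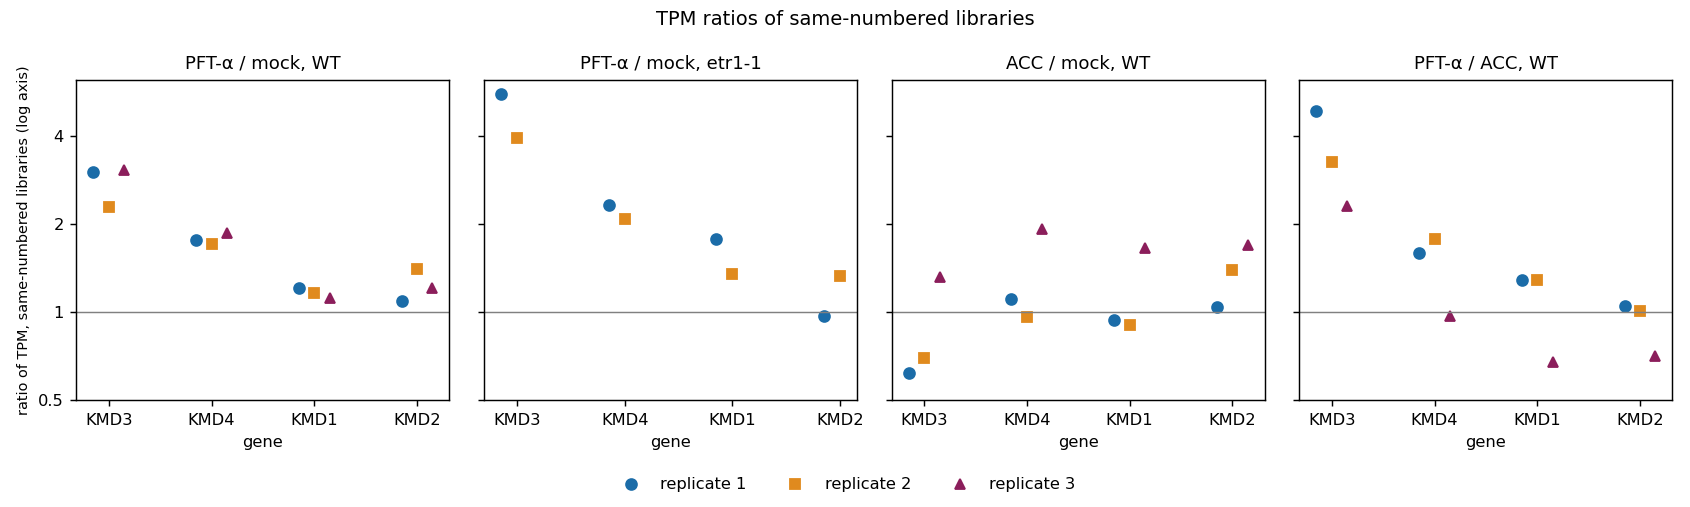
Ratio of TPM between same-numbered libraries (y axis, log scale) for the 4 genes (x axis) in 4 comparisons, with the replicate number as the point's shape and a line at 1. KMD3 is above 1 in all pairs of PFT-alpha against mock or ACC, and in the ACC to mock panel replicate 3 lies above the other replicates for each gene; in etr1-1 the numbers are not shown to pair libraries.

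Comparison of etr1-1 with wild type was not itself used to choose the genes. It is made from the same PFT-alpha and mock values by which they were chosen. Its p-values for the 4 genes are thus not free of that choice. Under PFT-alpha KMD3 was higher in etr1-1 by 1.06 ± 0.48 on the log2(TPM + 1) scale (SE), with both mutant libraries above all 3 wild-type ones, and this did not pass (adjusted p = 0.735, limma). KMD1 was higher by 0.94 ± 0.55, again with no overlap (adjusted p = 0.807, limma). The differences of KMD4, 0.32 ± 0.40, and KMD2, 0.14 ± 0.62, did not pass either (adjusted p = 0.882 and 0.966, limma). Without wild-type replicate 3 the ratios of means under PFT-alpha were 1.56 for KMD3, 1.326 for KMD1, 1.465 for KMD4 and 0.757 for KMD2. In this comparison 15.3% of all genes were higher with no overlap, and limma called 0.0284% of genes, and 0 of the 4 members were called.

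Blocking on the replicate number changed the size of these genotype differences and, for KMD2, the direction, and 0 of the 4 genes passed. With the block over all 13 libraries, KMD3 was higher under PFT-alpha by 0.71 ± 0.24, KMD4 by 0.62 ± 0.20 and KMD1 by 0.52 ± 0.21, and KMD2 lay at -0.34 ± 0.18 (SE). Adjusted p-values from limma were 0.252, 0.242, 0.334 and 0.452, and 0.0616% of all genes were called (0.0806% in mock). This block takes the numbers to pair libraries across genotypes. Such pairs correlated at -0.22 to 0.24 with the same number and at -0.24 to 0.24 with unlike numbers. Pairing across genotypes is thus not shown, which limits what the SEs of this fit mean. In mock, etr1-1 minus wild type was 0.29 ± 0.48 for KMD3, 0.02 ± 0.40 for KMD4, 0.53 ± 0.55 for KMD1 and 0.26 ± 0.62 for KMD2 (SE), each with an adjusted p of 1.0 in limma. Without wild-type replicate 3 the ratios of means in mock were 0.883, 1.16, 1.02 and 0.837. Without the library labelled etr1-1 mock 1 the log2 differences in mock were 0.47, -0.02, 0.66 and -0.04, in the same order.

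KMD3, KMD4 and KMD1 varied together once replicate 3 was set aside. Over the 10 libraries without wild-type replicate 3, log2(TPM + 1) of each pair of these genes correlated at a Pearson r of 0.94. KMD2 correlated with them at -0.02, 0.00 and -0.24. Over all 13 libraries KMD1 and KMD2 gave 0.82, KMD3 and KMD1 0.73, KMD3 and KMD4 0.42, and KMD4 and KMD1 -0.11. These libraries share treatments, and the genes were chosen for higher mean levels under PFT-alpha in them. A common pattern is thus partly built in, so the values are a description and no p is given.

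Other Kelch F-box genes are set beside the 4 as a description only. The 4 were chosen for higher levels in this same contrast, so a gap between them and the rest is not a result. The annotation in the table names 96 other genes with an F-box/kelch-repeat description and a Kelch motif, of which 37 were at 0 in all libraries and 42 passed the filter. Their PFT-alpha minus mock difference had a median of -0.05 in wild type, with a range of -0.40 to 0.14, against -0.02 for all genes tested. In etr1-1 the median was -0.07 (range -0.43 to 0.32) against -0.05 for all genes, and -0.03 (range -0.54 to 0.25) without etr1-1 mock 1 and with a term for replicate 3. The 4 KMD genes, at 0.22 to 1.46 in wild type, lay above the range of the 42, and in etr1-1 KMD2 lay within it. Over the alternative fits KMD1 ran from -0.29 to 0.76 in wild type and KMD2 from -0.23 to 0.84. Both thus reached into the range of the 42 given above.

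By level the KMD genes were near the top of the family. Over all libraries KMD3 averaged 201 TPM, KMD2 162, KMD1 145 and KMD4 91.0. Of the other Kelch F-box genes 1, AT1G67480, exceeded KMD4, KMD1 and KMD2, and 0 exceeded KMD3. AT1G67480 averaged 202 TPM in the mock of wild type and 173 with PFT-alpha (difference -0.22), AT1G74510 measured 19.3 and 16.7 (-0.21) and SKIP4 8.49 and 7.36 (-0.19). Limma called 0 of the 42 in any comparison, where it called 0.0142% of all genes for PFT-alpha in etr1-1, 0.00948% for ACC and 0.00474% for the interaction of genotype and PFT-alpha. With the replicate block in wild type, which called 5.5% of all genes for ACC against mock, AT1G26930 rose under ACC by 0.73 ± 0.14, while AT1G14330 fell by 0.58 ± 0.12 and AT5G60570 fell by 0.48 ± 0.09 on the log2(TPM + 1) scale (SE, adjusted p = 0.0253, 0.0342 and 0.0311, limma). In that fit AT1G26930 was lower under PFT-alpha than under ACC by 0.69 ± 0.14 (adjusted p = 0.0496, limma; 2.61% of all genes called). With the block over all 13 libraries, which called 3.37% and 0.133% of all genes in these comparisons, the 3 ACC calls held (adjusted p = 0.0453, 0.036 and 0.038, limma) and the PFT-alpha against ACC call did not (adjusted p = 0.11, limma).

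**Figure D4:**
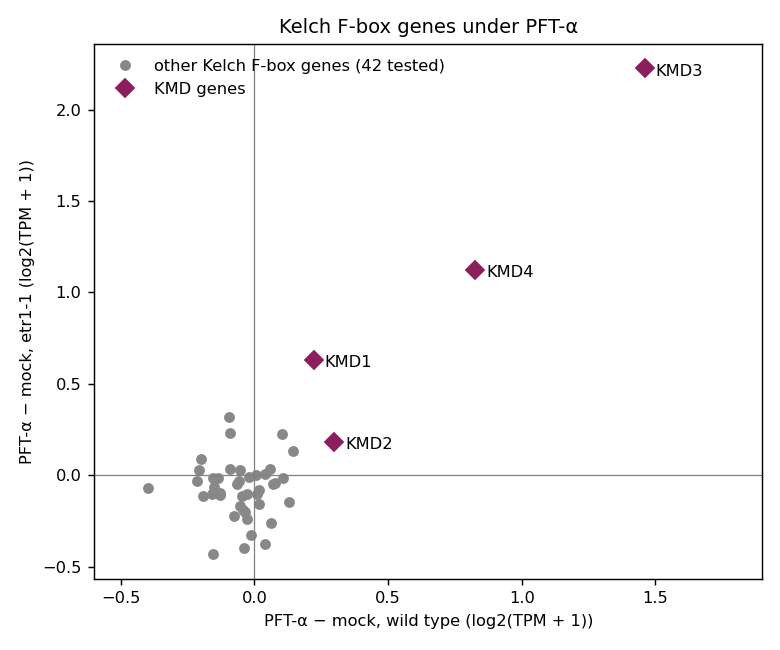
PFT-alpha minus mock difference of mean log2(TPM + 1) in wild type (x axis) and in etr1-1 (y axis) for the 4 KMD genes and 42 other Kelch F-box genes. The others lie between -0.40 and 0.14 in wild type, and KMD3 lies at 1.46 and 2.23.

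Genes with a pattern most like the mean of the 4 over all 13 libraries, among 15674 with a mean of at least 5 TPM, had a Pearson r of 0.912 to 0.966. KMD4 itself followed that mean at 0.34, and the 10 genes correlated with KMD4 at -0.01 to 0.41, so they are like the mean and not like each of the 4. The closest was ATAF1, a NAC transcription factor, at 21.4, 33.5 and 27.0 TPM in wild-type mock, PFT-alpha and ACC and 27.9 and 54.2 TPM in etr1-1 mock and PFT-alpha. The second was AT3G13310, a DnaJ-domain protein gene, which followed KMD3 at an r of 0.99, with means of 64.4, 153, 53.0, 67.4 and 243 TPM in the same order. The others were HR4, the receptor-like cytoplasmic kinase gene RIPK, AT2G36220, AT5G35735, CNI1 (a ubiquitin ligase gene of carbon and nitrogen responses), GGH1, DIP2 and AT5G48540. Means of RIPK were 21.1, 34.99, 17.6, 20.2 and 45.2 TPM and those of CNI1 6.66, 11.8, 6.69, 7.91 and 15.5 TPM. Without wild-type replicate 3, 4 of the 10 remained (RIPK, CNI1, AT3G13310 and AT5G48540), and GSTU7 came first at 0.975.

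In that list of 10 libraries also stood AT1G80450, a VQ-motif gene that lies 254 bases from KMD1, AT3G09275 opposite KMD4, PSK4, AT1G70420 and MYB4. MYB4, known as a repressor of phenylpropanoid genes, averaged 54.0 TPM in the mock of wild type, 106 with PFT-alpha, 46.4 under ACC, 56.2 in etr1-1 mock and 119 in etr1-1 under PFT-alpha. AT1G80450 averaged 4.18, 6.27, 4.20, 4.97 and 8.76 TPM in the same order. Its strand is minus and it does not overlap KMD1. All these genes were picked for their likeness, so their values are a description.

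Transcripts of known KMD targets and partners were read from lists of the pathways around them. The phenylpropanoid list holds PAL and the enzymes after it (11 genes, all tested). Under PFT-alpha in wild type 10 of the 11 lay below mock, 0 passed the test, and the median difference was -0.34 against -0.02 for all genes (-0.20 without replicate 3, with 1 of 11 above mock). PAL1 averaged 51.0 TPM in mock and 40.6 with PFT-alpha (-0.47), and PAL4 14.1 and 10.9 (-0.61), each with an adjusted p of 1.0 in limma. In etr1-1 10 of the 11 lay above mock, with a median of 0.20 and 0 passing. The difference between genotypes had a median of 0.59, and it called 0 of the 11. Without the library labelled etr1-1 mock 1, and with a term for replicate 3, the etr1-1 median was -0.03 and 5 of 11 lay above mock.

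ACC gave the phenylpropanoid list a median of -0.24. Chalcone synthase CHS, the first enzyme of flavonoid synthesis, fell under ACC by 1.18 ± 0.24 on the log2 scale with the replicate block over the wild-type libraries (SE, adjusted p = 0.0345, limma), from 39.1 to 16.7 TPM. It did not pass with the block over all 13 libraries (adjusted p = 0.0841, limma) or without a block. With PFT-alpha CHS averaged 34.6 TPM in wild type. In etr1-1 it averaged 35.7 ± 23.2 TPM in mock and 52.3 ± 15.6 with PFT-alpha (SD, n = 2 each). With this spread no PFT-alpha difference in etr1-1 is read from these means.

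Type-B ARR genes, whose proteins are the known KMD targets, lay close to mock in transcript level under PFT-alpha in wild type. Of 11 genes 6 were tested, 0 passed in any comparison, and the PFT-alpha difference in wild type had a median of -0.06 and a range of -0.13 to 0.05. ARR1 averaged 55.8 TPM in the mock of wild type and 53.4 with PFT-alpha, ARR2 11.9 and 10.98, and ARR10 8.67 and 8.43. In etr1-1 the range was -0.18 to 0.28, with a median of 0.05 (-0.06 without etr1-1 mock 1 and with a term for replicate 3, the fit also used for the values without that library below). Under ACC in wild type the differences ran from -0.41 (ARR2, at 8.74 TPM) to 0.06 (ARR1). Protein amounts were not measured.

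Type-A ARR genes, which cytokinin is known to induce through the type-B factors, gave a median of 0.08 under PFT-alpha in wild type and -0.24 in etr1-1, with 8 of 10 tested and 0 passing. Without etr1-1 mock 1 the etr1-1 median was 0.22, with 6 of 8 above mock, so its direction turned with that library. ARR7 averaged 12.4 TPM in the mock of wild type and 15.8 with PFT-alpha (0.31), and ARR5 23.2 and 21.2 (-0.10). ARR16, a low transcript, rose under ACC from 0.987 to 4.51 TPM, by 1.47 ± 0.18 on the log2 scale with the replicate block (SE, adjusted p = 0.00652, limma). It was lower under PFT-alpha than under ACC by 0.93 ± 0.18 in that fit (adjusted p = 0.0494, limma). With the block over all 13 libraries the first passed and the second did not (adjusted p = 0.0332 and 0.198, limma), and without a block neither passed.

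Cytokinin receptors and phosphotransfer proteins (7 of 8 tested), cytokinin oxidases (3 of 7) and cytokinin response factors (5 of 5) had 0 genes passing for PFT-alpha in either genotype. Without etr1-1 mock 1 the etr1-1 medians of these lists were 0.00, 0.06 and -0.16, against -0.06, 0.37 and -0.21 with it. AHK2, AHK3 and AHK4, the receptors, differed by -0.10, -0.03 and -0.07 in wild type. CKX5 and CKX6, which degrade cytokinin, averaged 7.13 and 8.72 TPM in the mock of wild type and 9.44 and 8.40 with PFT-alpha. The third tested oxidase gene, CKX7, lies under the mean of 5 TPM set for naming and was added after its values were seen. It had the largest PFT-alpha difference of the 3, 0.68 in wild type (2.85 to 5.16 TPM) and 0.81 in etr1-1 (1.88 to 4.03 TPM), with -0.01 under ACC. Neither PFT-alpha difference passed (adjusted p = 1.0 each in limma, unadjusted p = 0.00184 and 0.00216). AHP1, a phosphotransfer protein gene, rose under ACC from 13.3 to 22.4 TPM, by 0.77 ± 0.17 with the replicate block, and the response factor CRF2 rose from 10.12 to 15.2 TPM, by 0.57 ± 0.12 (log2 scale, SE, adjusted p = 0.0443 and 0.0376, limma). Neither passed with the block over all 13 libraries (adjusted p = 0.154 and 0.0697, limma) or without a block.

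SCF core subunits, with which KMD proteins assemble, lay close to mock. ASK1, the adaptor, averaged 267 TPM in the mock of wild type and 256 with PFT-alpha, and CUL1, the scaffold, 126 and 121. In the 4 genes the PFT-alpha difference ran from -0.08 to 0.00 in wild type and from 0.01 to 0.09 in etr1-1 (-0.02 to 0.27 without etr1-1 mock 1), and 0 passed.

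Genes induced by sugar starvation or darkness formed the last list. Of 14 tested, 0 passed under PFT-alpha, with a median of 0.04 in wild type and 0.12 in etr1-1 (0.17 without etr1-1 mock 1). Under ACC the median was 0.28 and 12 of 14 lay above mock. ASN1, asparagine synthetase, rose under ACC from 153 to 326 TPM, by 1.098 ± 0.114 with the replicate block, and BZIP1 rose from 150 to 217 TPM, by 0.54 ± 0.12 (log2 scale, SE, adjusted p = 0.00354 and 0.0464, limma). ASN1 was also lower under PFT-alpha than ACC, by 0.93 ± 0.11 (adjusted p = 0.0124, limma). With the block over all 13 libraries both ASN1 differences passed (adjusted p = 0.0135 and 0.0338, limma) and BZIP1 did not (adjusted p = 0.0838, limma), and without a block neither gene passed. In etr1-1 ASN1 averaged 358 TPM in mock and 353 with PFT-alpha, so it did not share the pattern of KMD1.

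**Figure D5:**
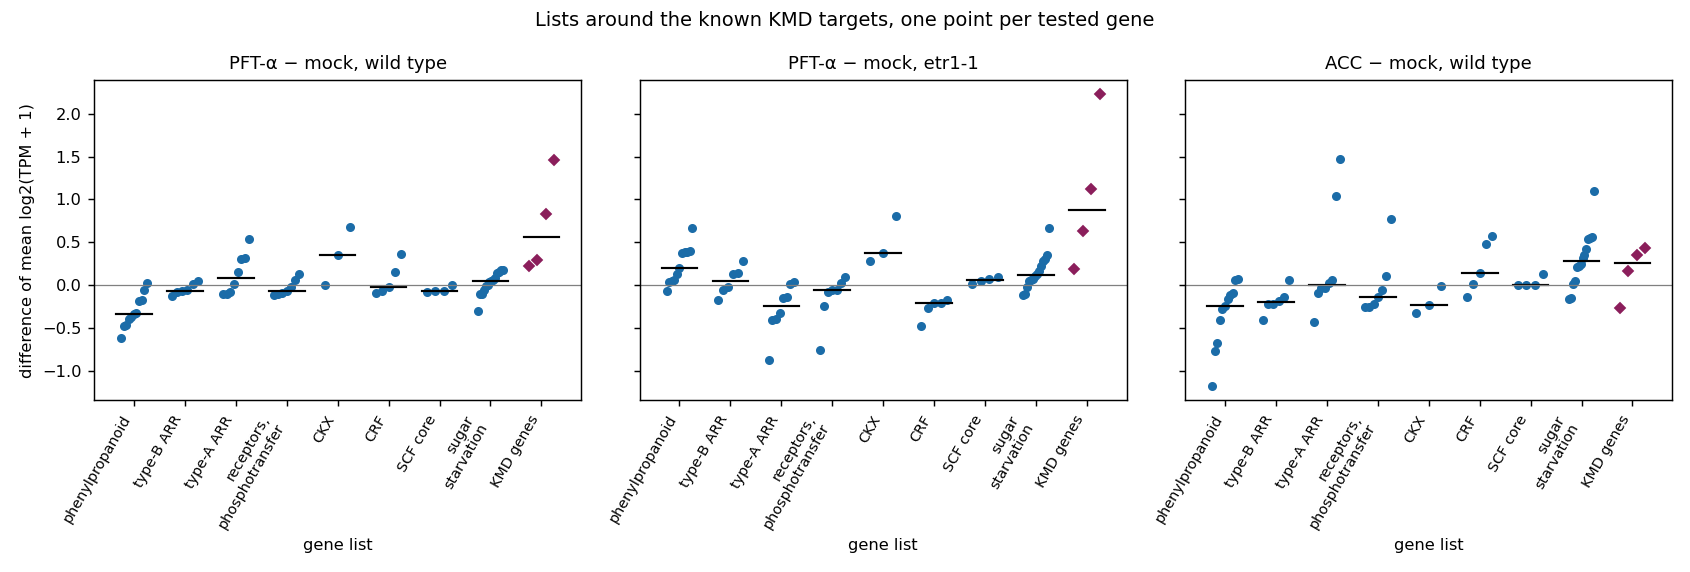
Difference of mean log2(TPM + 1) (y axis) for each tested gene of 8 lists and for the 4 KMD genes (x axis), with a bar at the median, in PFT-alpha minus mock in wild type and in etr1-1 and in ACC minus mock in wild type. The phenylpropanoid median is -0.34 in wild type and 0.20 in etr1-1 under PFT-alpha, and the type-B ARR medians are -0.06 and 0.05.

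Summed levels of tissue markers differed between some of the groups. For the 5 etiolated seedling markers the sum was 1824 to 2239 TPM in etr1-1 under PFT-alpha. Mock replicate 2 of etr1-1 held 2670, and the higher value of 4419 came from mock replicate 1, which stood apart in ERS2. Means of PORA, PORB, PIF3 and HLS1 were lower in etr1-1 under PFT-alpha than in mock, and PIF4 went the other way. The mock means include mock replicate 1, and for PIF3, HLS1 and PIF4 the 2 mock libraries lay far apart. PIF3 averaged 145.5 ± 101.1 TPM after DMSO and 76.7 ± 10.4 with PFT-alpha, and HLS1 68.7 ± 49.3 and 32.1 ± 0.184. PIF4 averaged 12.13 ± 8.25 and 18.84 ± 2.62 TPM in the same order (SD, n = 2 each). With this spread no difference of PIF3, HLS1 or PIF4 is read from the means. Seed storage markers summed to 4521 to 4595 TPM under PFT-alpha in etr1-1, to 323.9 in the library labelled etr1-1 mock 1 and to 4109 in etr1-1 mock 2, and none of the 8 was at 0 in all libraries. Antenna and Rubisco sums in etr1-1 were 20630 to 28550 TPM in mock and 21200 to 24580 under PFT-alpha. The part of these shifts in the values of the KMD genes was not tested.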

How the data were processed

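The deposited table held TPM for 33033 genes in 13 libraries, as named per the file headers, beside group means that were not used. Per the labels' protocols, libraries came from a stranded poly(A) kit with 150-base paired reads. Per the submitters' processing notes, the tools were HISAT, HISAT2, StringTie, fastp, DESeq2 and RSEM, with TAIR10, and versions and strand setting are not given in the sources used here. Gene spans in the table equalled those of TAIR10.1 for the 4 members, and KMD names came from that RefSeq table.

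The members and the gene lists were chosen with earlier results of these data known. Values were taken as log2(TPM + 1), which understates changes of low genes. The 21091 genes that reached 1 TPM in 2 libraries or more were fitted with limma 3.58.1 (R 4.3.3, intensity trend, 1 mean per group, all 13 libraries, two-sided, Benjamini-Hochberg at 0.05), tested on simulated data first. Where nothing says that replicates came from separate cultures, p-values measure only the spread between these libraries.

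Same-numbered wild-type libraries deviated together (correlations of 0.28 to 0.77 in all 9 pairs), and the numbers were taken to pair them. Wild-type pairs with unlike numbers gave -0.64 to 0.54, and those between replicates 1 and 2 gave 0.29 to 0.54. These values set replicate 3 apart and do not show that numbers 1 and 2 pair libraries. The 2 same-numbered etr1-1 pairs gave 0.13, and same-numbered pairs of mixed genotype gave -0.22 to 0.24. Blocked fits used the 9 wild-type libraries or all 13.

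Named genes were the members, the 10 most similar genes, up to 6 other Kelch F-box genes, and of each list those called or else the 2 largest PFT-alpha differences at a mean of at least 5 TPM, and some further list genes were added after their values were seen. Kelch F-box genes were narrowed, after the table was seen, to those with a Kelch motif in Pfam, because the description alone also took in non-coding genes. Depths came from the spacing of low TPM values, of which 81.0 to 88.4% lay within 0.15 of a whole number of fragments. Sequence work used biopython 1.88, plots matplotlib 3.10.9, and tables pandas 2.3.3 with numpy 2.4.6 under Python 3.11.15.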

Additional observations from a re-analysis of the deposited data

How the results depend on the processing

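For the 4 genes the alternatives were a pseudocount of 0.1, no filter, median-of-ratios scaling, blocked fits, wild-type replicate 3 left out, 1 library left out at a time, and KMD4 summed with AT3G09275. PFT-alpha minus mock stayed above 0 in all of them for KMD3 (0.98 to 1.87 in wild type, 2.05 to 2.4 in etr1-1) and KMD4 (0.61 to 1.01 and 1.0 to 1.25), while in wild type KMD1 ran from -0.29 to 0.76 and KMD2 from -0.23 to 0.84, below 0 in 3 and 1 of 20 alternatives. These turns came with 1 library of a pair left out, and with both replicate 3 libraries out the ratios were 1.19 and 1.23. Under ACC against mock, which was not tested for these genes, and for etr1-1 against wild type in mock, directions of single genes also turned. For PFT-alpha against ACC KMD1 turned in 3 and KMD2 in 4 of 20 alternatives. KMD2 turned in 4 of 19 for etr1-1 against wild type under PFT-alpha and in 1 of 19 for PFT-alpha against mock in etr1-1. For the interaction KMD2 turned in 5 and KMD1 in 1 of 19. KMD4 summed with AT3G09275 gave 0.74 in wild type and 1.01 in etr1-1. With 2 libraries in each etr1-1 group, the mutant differences rest on few samples.

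Counts of genes called differed between fits, and the cause was not tested. With the replicate block over the 9 wild-type libraries limma called 1159 genes for ACC against mock and 551 for PFT-alpha against ACC, against 2 and 0 without it. With the replicate block over all 13 it called 710 and 28, and 5 for PFT-alpha in etr1-1, 17 and 13 for etr1-1 against wild type in mock and under PFT-alpha, and 2 for the interaction. Of the 4 genes 0 were called with or without it in the genotype comparisons, where alone they were tested. Without wild-type replicate 3 the counts were 3 (PFT-alpha in wild type), 13 (in etr1-1), 12 (ACC), 13 (PFT-alpha against ACC), 16 and 11 (genotype in mock and under PFT-alpha) and 2 (interaction), and 4 of the 10 similar genes were shared. With etr1-1 mock 1 left out and a batch term they were 5 in etr1-1, 1958, 1105, 282, 813 and 4. A pseudocount of 0.1 gave 1 for PFT-alpha against ACC, 3 for genotype in mock and 0 for the interaction, and no filter gave 1 for PFT-alpha against ACC, 18 in etr1-1, 23 for genotype under PFT-alpha and 13 for the interaction. Leaving out 1 library at a time gave 0 to 2 (PFT-alpha in wild type), 2 to 200 (in etr1-1), 0 to 364 (ACC), 0 to 118 (PFT-alpha against ACC), 3 to 55 and 2 to 100 (genotype in mock and under PFT-alpha) and 1 to 135 (interaction). Except for PFT-alpha in wild type, the highest of these counts came without etr1-1 mock 1 or etr1-1 mock 2.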
